A study of Mus musculus with 3 samples.

Results

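The 10 genes described here are the vascular endothelial growth factor (VEGF) ligands Vegfa, Vegfb and Vegfc, the angiopoietins Angpt1 and Angpt2, the VEGF receptors Kdr, Flt1 and Flt4, the co-receptor Nrp1 and the angiopoietin receptor Tek. They were chosen by name from the 2 ligand and receptor families, with earlier results of these data known. Relatives such as Pgf, Vegfd, Tie1 and Nrp2 were not members. The 10 genes were among the 36530 features of the count tables. Transcripts were counted as unique molecular identifiers (UMIs) in single cells from 3 mouse melanomas, each the only tumor of its group. The groups were an untreated tumor, a tumor regressed on the BRAF inhibitor vemurafenib and a tumor progressed on it. The labels give no time on the drug and no animal age. The labels name C57BL/6 as the background, and the study's methods describe mice with a conditional activating Braf allele and the Tyr promoter driving CreER, with or without a conditional tdTomato reporter, so every tumor carried the Braf change. Recombination was induced in flank skin with 4-OH tamoxifen and the cells of the vessels, stroma and blood were the host's own. With 1 tumor per group there was no replicate, no test between tumors was made, and a difference between groups cannot be told apart from a difference between 2 animals or 2 preparations.

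VEGF-A binds Kdr and Flt1 on endothelial cells. Kdr carries most of the growth and permeability signal, Flt1 binds the ligand tightly and can act as a trap, VEGF-B binds Flt1 and not Kdr, and VEGF-C acts through Flt4, best known in lymphatic vessels. Nrp1 is a co-receptor that also binds semaphorins and is found well outside vessels. Angpt1, made by cells around vessels, activates Tek and steadies the vessel wall, whereas Angpt2, released by activated endothelium, can oppose it. Vegfa transcription is induced by low oxygen.

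The tables held 4095 cells of the untreated tumor, 3726 of the regressed tumor and 4849 of the progressed tumor, with 22202192, 12413268 and 26948940 UMIs. The regressed tumor was the shallowest, at a median of 2658 UMIs a cell, where the untreated tumor had 4496 and the progressed 4566. The deposited cluster names were used: Bloodvessel, Tumor1 and Tumor2 (tumor cells), Stroma1 to Stroma10 (stroma), and 7 macrophage, monocyte, neutrophil, mast and NK/T clusters (immune). A level is given as UMIs of the gene per 1000000 UMIs of the cell group (CPM), with a 95% exact Poisson interval in parentheses. Intervals of ratios are exact conditional binomial and those of shares exact Clopper-Pearson, all 95%. A ratio marked regressed/untreated is the CPM of the first tumor over that of the second, on the log2 scale. Comparisons with the untreated tumor share its cells. All of these intervals cover counting error only, and none holds the variation between animals. The clusters were built from the same counts, so the level of a gene in one cluster against another is a description.

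Bloodvessel held 74 cells of the untreated, 48 of the regressed and 28 of the progressed tumor, with 779004, 214420 and 157056 UMIs and median depths of 9089, 3504 and 4090 UMIs. The name fitted its markers. Pecam1, a junction protein used to name the cluster, was found in 97.3%, 83.3% and 92.9% of the cells. Cdh5, the cadherin of endothelial junctions, was found in 98.7%, 83.3% and 89.3%. The 10 blood endothelial markers summed to 6741 (untreated), 6110 (regressed) and 6514 CPM (progressed). Markers of other cells moved between tumors in the same cluster. Fibroblast markers summed to 1046, 3484 and 3521 CPM, red blood cell markers to 47.5, 1530 and 0 CPM, neutrophil markers to 2651, 872 and 6.37 CPM, and mural markers to 402, 527 and 153 CPM. Their part in the receptor levels was not tested. Lymphatic markers summed to 715, 546 and 509 CPM.

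Kdr (Entrez 16542, chr5:75932827-75979072) and Flt1 (14254, chr5:147561604-147726438) lie on the minus strand of the same mouse chromosome in GRCm38.p6. The co-receptor Nrp1 (18186, chr8:128358591-128505476) lies on the plus strand. These 3 were the receptors with higher levels in Bloodvessel of both treated tumors than of the untreated one, and the 250 bases upstream of their RefSeq starts are shown for that reason. The promoter of Kdr was chr5:75978456-75978705, that of Flt1 chr5:147726012-147726261 and that of Nrp1 chr8:128358823-128359072. Each lies inside the full span of its gene, whose outermost start is further upstream. Capitals mark GGAA on either strand (TTCC when it lies on the other strand), the core of sites bound by ETS factors.
Kdr: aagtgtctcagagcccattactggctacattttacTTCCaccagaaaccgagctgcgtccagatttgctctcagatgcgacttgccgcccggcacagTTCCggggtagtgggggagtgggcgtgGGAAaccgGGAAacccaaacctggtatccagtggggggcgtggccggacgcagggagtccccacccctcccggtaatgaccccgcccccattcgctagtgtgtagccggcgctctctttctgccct
Flt1: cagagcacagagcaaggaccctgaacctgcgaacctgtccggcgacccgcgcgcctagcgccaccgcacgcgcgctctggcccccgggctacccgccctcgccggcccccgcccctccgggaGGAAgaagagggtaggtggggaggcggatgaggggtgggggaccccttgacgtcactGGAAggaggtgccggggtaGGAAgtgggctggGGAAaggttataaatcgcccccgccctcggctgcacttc
Nrp1: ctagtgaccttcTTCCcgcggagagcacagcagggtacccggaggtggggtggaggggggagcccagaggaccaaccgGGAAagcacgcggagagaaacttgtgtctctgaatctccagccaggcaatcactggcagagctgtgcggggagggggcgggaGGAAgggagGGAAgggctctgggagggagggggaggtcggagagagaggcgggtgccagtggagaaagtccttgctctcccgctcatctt
Each of the 3 sequences held 4 matches. The motif is short and common: 93.5% of 32851 mouse promoters of this length held it and 33.4% held at least 4 matches, so the count does not set these promoters apart. Promoters of 8 of the 10 genes were matched.

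Kdr, the main signalling receptor for VEGF-A, had 67 UMIs in Bloodvessel of the untreated tumor, 33 in the regressed tumor and 37 in the progressed tumor. These were 86.0 CPM (66.7 to 109), 154 CPM (106 to 216) and 236 CPM (166 to 325). The level was lowest in the untreated tumor, and its interval did not overlap that of the progressed tumor. The log2 ratio was 0.84 (0.19 to 1.46) for regressed/untreated, 0.61 (-0.10 to 1.34) for progressed/regressed and 1.45 (0.83 to 2.05) for progressed/untreated. The share of cells with a Kdr UMI went the other way, at 50%, 41.7% and 39.3%, and at an equal depth of 1000 UMIs per cell, which left out 7 cells of the regressed tumor, it was 9.46%, 9.76% and 17.9%. Stroma, which should lack Kdr, had it in 0.152%, 0.261% and 0.175% of cells at median depths of 4654, 3152 and 4388 UMIs.

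A single cell carried much of the progressed value. It held 61 of the 169 receptor UMIs of its cluster (36.1%) in 9.05% of the cluster's UMIs, and 18 of its 37 Kdr UMIs. The matching cell of the untreated tumor held 11.4% of the receptor UMIs and 15 of the Kdr UMIs, and that of the regressed tumor 9.68%. Without these 3 cells, a choice made after the data were seen, the log2 ratio of Kdr was 1.12 for regressed/untreated, -0.18 for progressed/regressed and 0.94 for progressed/untreated, which is under 2-fold. With every cell given equal weight the last was 0.61.

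Flt1, the high-affinity receptor of VEGF-A and VEGF-B, had 129, 67 and 47 UMIs in Bloodvessel of the untreated, regressed and progressed tumor. Its levels were 166 CPM (138 to 197), 312.5 CPM (242 to 397) and 299 CPM (219.9 to 398). Both treated tumors were above the untreated one with intervals that did not overlap it, and they overlapped each other. Against untreated, the log2 ratio was 0.92 (0.47 to 1.35) for the regressed and 0.85 (0.34 to 1.35) for the progressed tumor. In cells thinned to 1000 UMIs the progressed value turned to -0.92, on 11 untreated and 3 progressed cells with a UMI. Flt1 was found in 56.8%, 52.1% and 46.4% of the cells, against 0.419%, 0.782% and 0.321% in stroma.

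Nrp1, the co-receptor, followed the pattern of Flt1. It had 162, 87 and 59 UMIs in Bloodvessel, or 208 CPM (177 to 243), 406 CPM (325 to 500.5) and 376 CPM (286 to 485). Against untreated, the log2 ratio was 0.96 (0.57 to 1.35) for the regressed and 0.85 (0.40 to 1.29) for the progressed tumor, and -0.11 (-0.61 to 0.38) between the treated tumors. The levels of the treated tumors were thus close to each other and about 2-fold the untreated level, without reaching the 2-fold rule. Leaving out the cell with most receptor UMIs in each tumor put the regressed tumor past it, at 1.07 for Flt1 and 1.10 for Nrp1, and lowered the progressed tumor to 0.62 and 0.47 against untreated. The treated tumors then lay further apart, at -0.45 for Flt1 and -0.63 for Nrp1 for progressed/regressed.

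Tek, the receptor of both angiopoietins, had no such order. Bloodvessel held 68, 26 and 12 Tek UMIs, or 87.3 CPM (67.8 to 111), 121 CPM (79.2 to 178) and 76.4 CPM (39.5 to 134). All 3 intervals overlapped. The share of cells with a UMI was 56.8%, 39.6% and 21.4%, in cells of unequal depth.

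**Figure D1:**
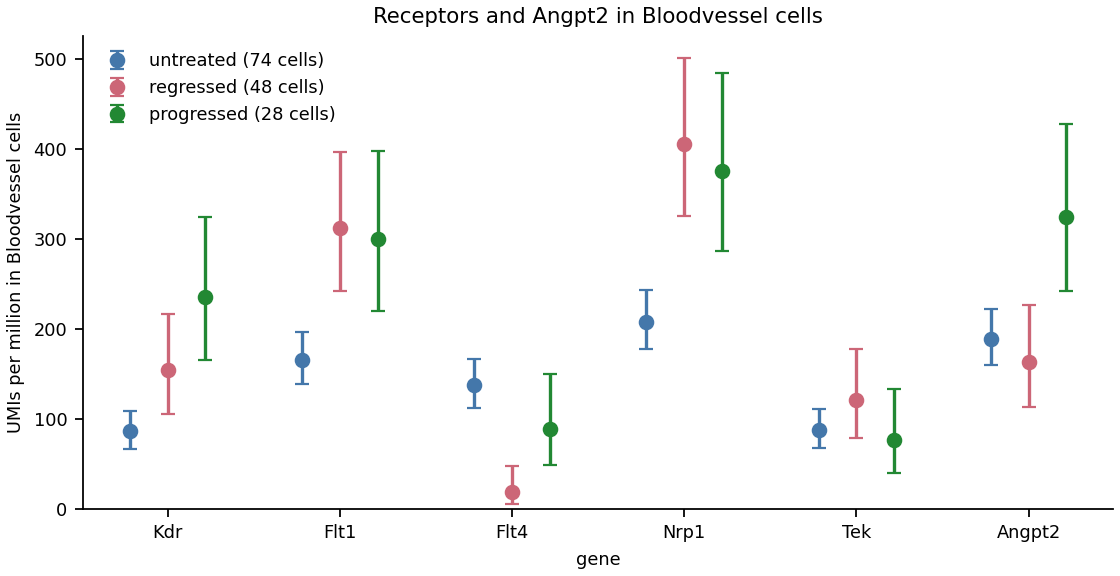
Levels of the 5 receptors and Angpt2 in Bloodvessel cells, as UMIs per 1000000 UMIs of the cluster (vertical axis), in the untreated, regressed and progressed tumor, 1 tumor each. Points are the levels and bars 95% exact Poisson intervals; Kdr, Flt1 and Nrp1 are lowest in the untreated tumor, Flt4 is lowest in the regressed tumor at 18.7 CPM, and Tek intervals overlap.

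Flt4, the receptor of VEGF-C, was the 1 member past 2-fold in Bloodvessel between the regressed and the untreated tumor. It had 107 UMIs (untreated), 4 (regressed) and 14 (progressed), or 137 CPM (113 to 166), 18.7 CPM (5.08 to 47.8) and 89.1 CPM (48.7 to 150). The regressed tumor was the low one and did not overlap the others. The log2 ratio was -2.88 (-4.78 to -1.48) for regressed/untreated and -0.62 (-1.54 to 0.19) for progressed/untreated. The share of cells with lymphatic markers also varied, with intervals that overlapped. Cells with at least 2 UMIs over Prox1, Mmrn1, Reln and Ccl21a, genes of lymphatic endothelium, were called lymphatic-marked. They numbered 16 of 74 (21.6%, 12.9% to 32.7%), 3 of 48 (6.25%, 1.31% to 17.2%) and 4 of 28 (14.3%, 4.03% to 32.7%). Median depths were 9089, 3504 and 4090 UMIs, and a minimum of 2 UMIs is harder to reach in shallow cells. At the equal depth used above, Prox1 alone was found in 4.05%, 4.88% and 3.57% of cells. These were 3, 2 and 1 cells, and the part of depth in the lymphatic-marked shares was not tested.

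Over the 3 tumors the 23 lymphatic-marked cells held 100 Flt4 UMIs (523 CPM) and the other 127 cells held 25 (26.1 CPM). The untreated tumor gave 93 of the 100. Flt4 was also lower within the lymphatic-marked cells of the treated tumors, at 639 CPM in 15 of 16 cells (untreated), 154 CPM in 1 of 3 (regressed) and 152 CPM in 3 of 4 (progressed), on 93, 2 and 5 UMIs. The other receptors were lower in the lymphatic-marked cells. Kdr was 52.3 CPM in them against 132 CPM in the rest, Flt1 10.5 against 251 CPM, Nrp1 41.8 against 313 CPM and Tek 31.4 against 104 CPM. Lyve1, a lymphatic surface receptor that was not used for the split, had 1950 CPM in the lymphatic-marked cells. Without the lymphatic-marked cells, left out after the data were seen, Flt4 had 14, 2 and 9 UMIs, and its log2 ratio was -1.15 for regressed/untreated and 1.71 for progressed/untreated. The lymphatic markers summed were lower in the regressed than the untreated cluster by less than Flt4, at -0.39 (-0.69 to -0.10) on the log2 scale against -2.88. In the sum over the cluster, fewer lymphatic cells and less Flt4 per cell cannot be told apart.

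Angpt2, the Tek ligand made by activated endothelium, had 147, 35 and 51 UMIs in Bloodvessel, or 189 CPM (159 to 222), 163 CPM (114 to 227) and 325 CPM (242 to 427). The progressed tumor was high, and the untreated and regressed tumors overlapped. The progressed value again rested on few cells: 41 of the 51 UMIs came from 2 cells, and 42 came from 3 of the 4 lymphatic-marked cells, which had 1278 CPM against 72.5 CPM in the other 24. Without lymphatic-marked cells the log2 ratio turned from 0.78 (0.29 to 1.25) to -1.27 for progressed/untreated, and from 0.99 to -1.22 for progressed/regressed. Angpt2 was found in 42 of 74, 10 of 48 and 6 of 28 cells.

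Summed over the 5 receptors, Bloodvessel held 684 (untreated), 1012 (regressed) and 1076 CPM (progressed). The log2 ratio was 0.56 (0.33 to 0.80) for regressed/untreated, 0.088 (-0.21 to 0.39) between the treated tumors and 0.65 (0.39 to 0.91) for progressed/untreated. The progressed sum drew 36.1% of its UMIs from 1 cell. Its ratio to untreated was smaller without the cell with most receptor UMIs in each tumor, with equal weight per cell and in thinned cells. It was larger without lymphatic-marked cells, and these values are given in the closing section. Of the 6 members with at least 20 UMIs in the pair of tumors, 1 was at least 2-fold apart between regressed and untreated (Flt4), where 24.8% of all features with that many UMIs were. Of 5, 0 were apart between progressed and regressed, where 20.3% of features were. Of 6, 1 was apart between progressed and untreated (Kdr), where 20.5% of features were. None of these shares was above that of all features. The other ligands were scarce in Bloodvessel: Vegfa had 9, 5 and 0 UMIs, Vegfb 17, 0 and 1, Vegfc 3, 5 and 4, and Angpt1 2, 0 and 0. The floor of 3 UMIs set for a count of 0 is 14.0 CPM in the regressed and 19.1 CPM in the progressed tumor here.

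Most vessel cells held more than 1 receptor. Of the 150 Bloodvessel cells, 15 held no UMI of the 5 receptors, 28 held 1 of them, 38 held 2, 40 held 3, 22 held 4 and 7 held all 5. Kdr and Flt1 were found together in 43 cells, Kdr without Flt1 in 25, Flt1 without Kdr in 37 and neither in 45. Of the 67 cells with Tek, 57 also had Kdr or Flt1. Angpt2 was found in 58 cells, 35 of which also had a Tek UMI. Immune cells, which should lack Angpt2, had it in 3.04%, 2.30% and 2.49% of cells (median UMIs 3651, 2173 and 3736), where Bloodvessel had it in 56.8%, 20.8% and 21.4%. Stray stromal RNA was present in the cluster, with Col1a1 in 75.7%, 62.5% and 64.3% of its cells, and its part in the Angpt2 and Tek cells was not tested. Cells with a UMI were the deeper ones, as for Nrp1 in the untreated tumor with a median of 13380 UMIs against 4146, so a cell with no UMI cannot be read as a cell without the transcript.

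**Figure D2:**
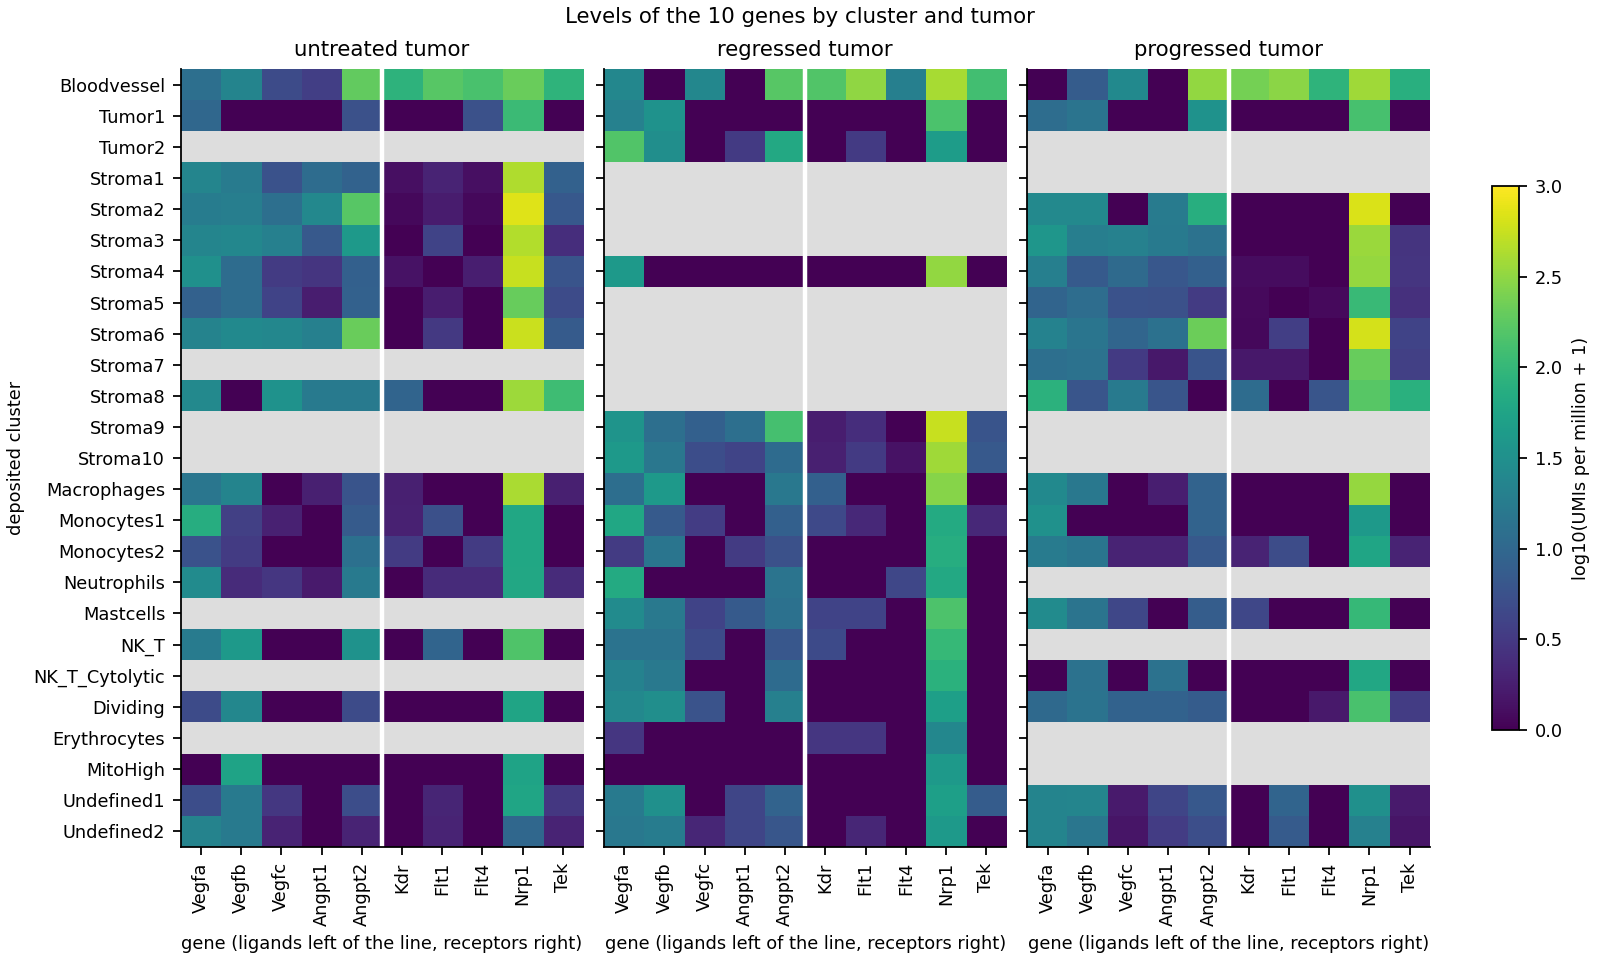
Level of each of the 10 genes (columns) in each cluster (rows), with a panel for each tumor, as log10 of CPM + 1 in color. Grey marks fewer than 20 cells. Kdr, Flt1 and Flt4 stand out in the Bloodvessel row, Nrp1 is spread over stroma and macrophages, and Angpt2 is high in Bloodvessel and a few stroma clusters.

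The receptors differed in how much of their transcript lay in vessel cells. Bloodvessel held 90.5%, 70.2% and 82.2% of all Kdr UMIs of the untreated, regressed and progressed tumor. It held 86.0%, 76.1% and 50% of Flt1 and 92.2%, 57.1% and 82.4% of Flt4 (chr11:49609679-49652739), the regressed share of Flt4 resting on 7 UMIs in all. In the progressed tumor the unnamed clusters Undefined1 and Undefined2 held 13 Flt1 UMIs each, in 7 and 8 cells. Tumor cells held 0 Kdr UMIs in every tumor, with upper interval limits of 14.0 (untreated), 6.19 (regressed) and 4.39 CPM (progressed).

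Nrp1 was mainly a stromal transcript. Of 8862, 3156 and 7130 Nrp1 UMIs, 88.7%, 83.5% and 85.6% lay in stroma and 1.83%, 2.76% and 0.828% in Bloodvessel. In stroma its level was 558 CPM (546 to 570.5), 410.3 CPM (395 to 426) and 347 CPM (338 to 356). Both treated tumors were below the untreated one in pooled stroma and above it in Bloodvessel. The log2 ratio in stroma was -0.44 (-0.51 to -0.38) for regressed/untreated and -0.69 (-0.73 to -0.64) for progressed/untreated. The stroma clusters differed between tumors. Stroma6 was not lower in the progressed tumor, at 633 CPM (613 to 654) against 570 CPM (504 to 642) in the untreated one. Stroma4 went the other way, with 1229 Nrp1 UMIs in 826 progressed cells and 1433 in 599 untreated cells. The part of the cluster mix in the stroma ratios was not tested. Macrophages held 414, 286 and 337 CPM of Nrp1, found in 67.6%, 33.6% and 60.8% of them. In tumor cells its level was 109.9, 68.8 and 133 CPM.

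Tek (21687, chr4:94739086-94874976) was also not confined to vessels: stroma held 55.4%, 59.7% and 74.0% of its UMIs and Bloodvessel 41.0%, 33.8% and 16.4%. Over all stroma the level was 6.54 CPM (5.27 to 8.02), 7.16 CPM (5.24 to 9.55) and 3.07 CPM (2.31 to 4.005), lowest in the progressed tumor, with log2 ratios of -1.09 (-1.60 to -0.59) against untreated and -1.22 (-1.82 to -0.62) against regressed. The small cluster Stroma8 had a level of Tek like that of Bloodvessel. Its 23, 18 and 21 cells held 115 CPM (62.8 to 193), 126 CPM (57.4 to 238) and 78.9 CPM (44.1 to 130), in 8, 8 and 9 cells. None of its cells in any tumor held Pecam1, and all of its Tek cells held the collagen gene Col1a1. The same cluster was rich in Vegfd, a VEGF-C relative that was not a member, with 804, 293 and 694 CPM.

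The ligand sources are set against these receptors next. Stroma, which held 63.4%, 51.8% and 65.3% of all UMIs, held most UMIs of every ligand except Vegfb in the regressed tumor (48.1%). For Angpt1 (chr15:42424667-42676977) the share was 98.0%, 77.5% and 83.0%, for Vegfc (chr8:54077532-54186454) 91.5%, 73.3% and 85.9%, and for Angpt2 (chr8:18690263-18741562) 85.0%, 69.7% and 91.0%. Vegfa (chr17:46016993-46032377) followed the share of UMIs in stroma more closely, at 60.4%, 55.4% and 62.9%. Vegfb (chr19:6982472-6987651) stood at 69.0%, 48.1% and 58.8%. Macrophages and monocytes held 21.2%, 12.1% and 12.4% of Vegfa.

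**Figure D3:**
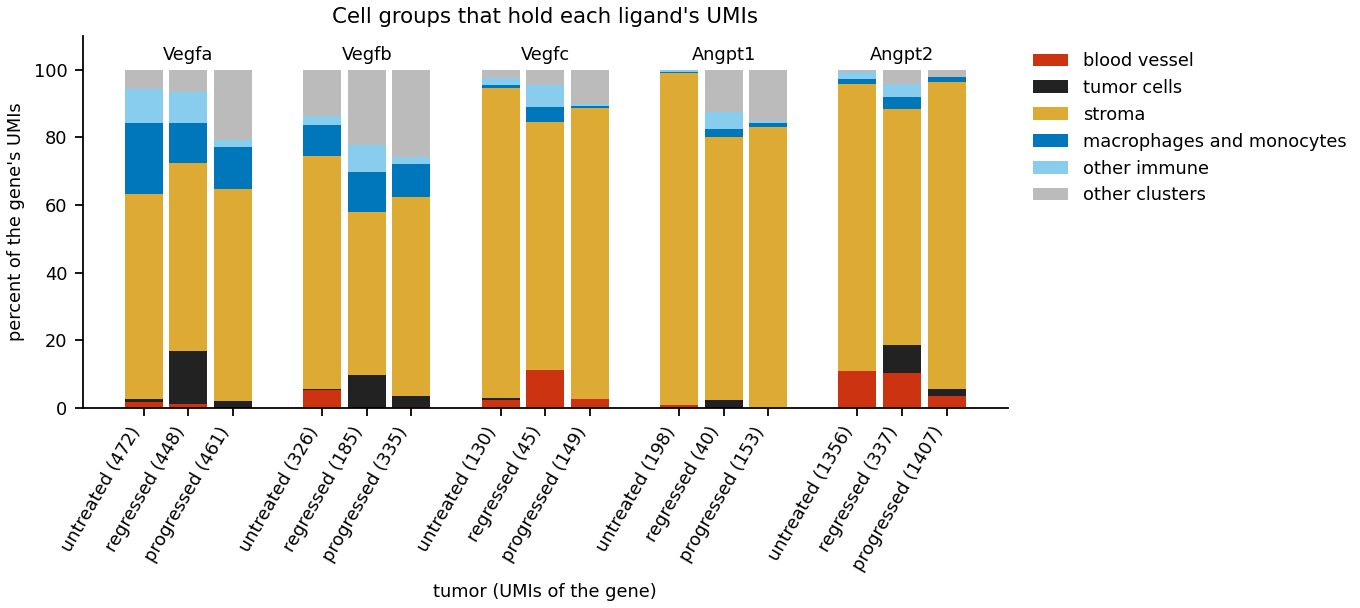
Percent of each ligand's UMIs held by each group of clusters (stacked bars, each summing to 100%), for the untreated, regressed and progressed tumor. Stroma is the largest share of every bar; tumor cells hold 15.8% of Vegfa in the regressed tumor, against 0.848% and 1.95% in the other tumors.

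Vegfa was the ligand with most UMIs in tumor cells of the regressed tumor. The 48 untreated, 410 regressed and 160 progressed tumor cells held 4, 71 and 9 Vegfa UMIs, or 15.2, 119 (93.04 to 150) and 10.7 CPM. The regressed tumor was high and the other tumors did not differ beyond counting error. The log2 ratio was 2.98 (1.56 to 4.89) for regressed/untreated and -3.47 (-4.66 to -2.47) for progressed/regressed. Tumor cells held 11% of the cells and 4.80% of the UMIs of the regressed tumor, and 15.8% (12.6% to 19.6%) of its Vegfa. In the untreated tumor they held 1.17% of cells and 0.848% of Vegfa, and in the progressed tumor 3.30% and 1.95%.

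Nearly all of this lay in Tumor2. In the regressed tumor, 349 Tumor2 cells held 68 Vegfa UMIs in 51 cells (14.6%, 11.1% to 18.8%), a level of 153 CPM (119 to 194). It was the highest of the 53 combinations of cluster and tumor ranked, and its interval overlapped that of Stroma8 in the progressed tumor. With cells thinned to 1000 UMIs, 15 of the 121 cells deep enough (12.4%) had Vegfa. Tumor2 had 4 cells in the untreated and 4 in the progressed tumor, so it could not be compared between tumors. Tumor1 held 2, 3 and 9 Vegfa UMIs, and within Tumor1 alone the log2 ratios were 1.13 and -0.87, on those counts. Tumor2 cells of the regressed tumor were shallow, with a median of 768 UMIs. Sox10, a melanocyte lineage factor, was found in 37.5% of them, the feature named tWPRE in 49.6% and Dct, a pigment enzyme, in 9 cells. In the deeper Tumor1 cells of the same tumor (a median of 1712 UMIs) Sox10 was found in 72.1% and tWPRE in 65.6%. Bloodvessel cells, also deeper, had tWPRE in 39.2% (untreated), 35.4% (regressed) and 25.0% (progressed), so its presence alone does not mark a tumor cell. Red blood cell markers in tumor cells summed to 45.5, 1383 and 0 CPM, high in the same tumor, and their part in the Vegfa level was not tested.

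Genes induced by low oxygen were higher in the same Tumor2 cells. The list of 12 such genes summed, in tumor cells, to 799.5 (untreated), 3290 (regressed) and 782.5 CPM (progressed). Of 10 with at least 20 UMIs, 9 were at least 2-fold above their untreated level in the regressed tumor. Of all features, 22.7% were 2-fold apart either way. A gene could pass the UMI minimum through the regressed tumor alone, as the untreated tumor cells held 263922 UMIs against 596002. The list was chosen with earlier results of these data known, so the count is a description. Ero1a, an oxidase of protein folding, went from 15.2 to 386 CPM, Slc2a1, the glucose transporter, from 34.1 to 218 CPM, and Adm, the vasoactive peptide adrenomedullin, from 22.7 to 143 CPM. Bnip3, a mitophagy receptor, had 2 UMIs in the untreated and 179 in the regressed tumor, at 7.58 and 300.3 CPM. Of the 10, 9 were 2-fold lower in the progressed than in the regressed tumor, where 17.2% of features were 2-fold apart. These comparisons set different clusters side by side, since 349 of the 410 regressed tumor cells were Tumor2 while 44 of 48 untreated and 156 of 160 progressed tumor cells were Tumor1. Within Tumor1 the list summed to 748 CPM (638 to 871), 788 CPM (653 to 943) and 785 CPM (726 to 847.5), with overlapping intervals, against 4140 CPM (3953 to 4333) in regressed Tumor2. Slc2a1 in Tumor1 was at 40.8, 39.7 and 15.7 CPM on 9, 6 and 13 UMIs, Bnip3 at 9.07, 13.2 and 16.9 CPM and Ero1a at 9.07, 19.9 and 7.24 CPM.

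In stroma the list summed to 870, 776 and 758 CPM, while the median log2 ratio of its 11 genes with enough UMIs was 0.68 for regressed/untreated and -0.89 for progressed/regressed, where all features stood at 0.14 and -0.20. Sum and median thus differed in direction between regressed and untreated. In Bloodvessel the list summed to 1199, 1189 and 1242 CPM, and 4 of 9 genes were 2-fold apart for progressed/untreated (2 higher and 2 lower), against 20.5% of features. For regressed/untreated 1 of 8 was apart, against 24.8% of features, and for progressed/regressed 0 of 2, against 20.3%.

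Within regressed Tumor2, Bnip3 was found in 62.8% of the 51 cells with Vegfa and in 18.1% of the 298 without, at median depths of 831 and 763.5 UMIs. The feature tWPRE was found in 47.1% and 50%. The cells share 1 library, so these shares are a description of it.

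**Figure D4:**
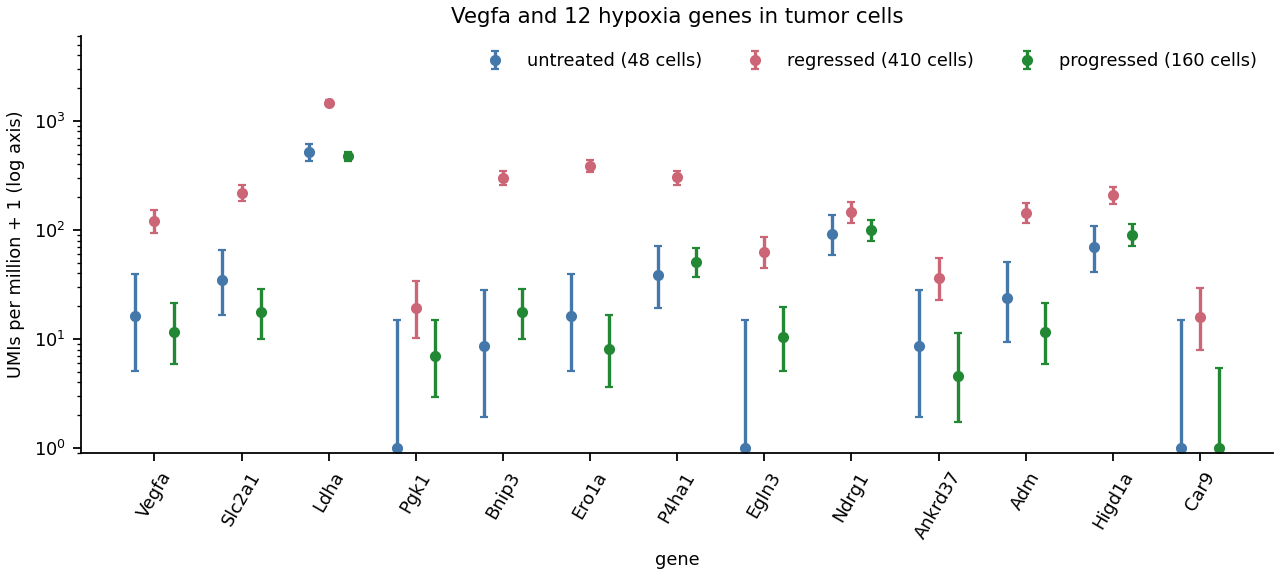
Vegfa and 12 genes induced by low oxygen in tumor cells (Tumor1 and Tumor2 together), as CPM + 1 on a log axis, with 1 point for each of the 3 tumors. The regressed tumor is highest for Vegfa, at 119 CPM, and for 9 of the 10 listed genes with enough UMIs by at least 2-fold.

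The other ligands had few UMIs in tumor cells. Vegfb, which acts through Flt1, had 1, 18 and 11, or 3.79, 30.2 and 13.1 CPM, with a log2 ratio of -1.21 (-2.43 to -0.044) for progressed/regressed. Angpt2 had 1, 28 and 27, or 3.79, 47.0 and 32.2 CPM, low in the untreated tumor on 1 UMI. The log2 ratio of Angpt2 was 3.63 (1.04 to 8.99) for regressed/untreated and 3.08 (0.48 to 8.44) for progressed/untreated. In cells thinned to 1000 UMIs, which left out 244 of the 410 regressed tumor cells, these were 0.44 and 0.80. Both rest on at most 1 untreated UMI. In the regressed tumor all 28 UMIs lay in Tumor2, in 23 cells, and in the progressed tumor all 27 lay in Tumor1, in 22 of 156 cells. Fibroblast markers were present in the tumor clusters, at 2880, 3225 and 3830 CPM against 35310, 32860 and 38170 CPM in stroma. Per 1000 fibroblast-marker UMIs the tumor cells held 1.32, 14.6 and 8.40 Angpt2 UMIs, and stroma 2.32, 1.11 and 1.91. Of the members with enough UMIs in tumor cells, 2 of 3 were 2-fold apart between regressed and untreated (Vegfa and Angpt2, against the same 22.7% of features). Between progressed and regressed 2 of 4 were (Vegfa and Vegfb, against 17.2%), and between progressed and untreated 1 of 2 (Angpt2, against 15.3%). Against untreated, Vegfa and Angpt2 passed the UMI minimum through a treated tumor, with 4 and 1 UMIs in the untreated one. These counts are a description.

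In stroma, Vegfa was also highest in the regressed tumor, though by less than in tumor cells. It had 285, 248 and 290 UMIs, or 20.3 CPM (18.0 to 22.7), 38.6 CPM (34.0 to 43.7) and 16.5 CPM (14.6 to 18.5). The log2 ratio was 0.93 (0.68 to 1.18) for regressed/untreated and -1.23 (-1.48 to -0.98) for progressed/regressed. Stroma10, which held 1537 of the 1918 stroma cells of the regressed tumor, had 40.1 CPM and Stroma9 34.7 CPM. The highest stroma level was that of Stroma8 in the progressed tumor, with 16 UMIs in 5 of 21 cells at 84.1 CPM (48.1 to 137). The stroma clusters were largely those of 1 tumor each, so cluster and tumor cannot be told apart for most of them. With the 4 stroma clusters of at least 10 cells in every tumor given equal weight, the progressed value against regressed turned to 0.27. These were Stroma3, Stroma4, Stroma6 and Stroma8, with 12, 20, 13 and 18 cells of the regressed tumor. Stroma10 and Stroma9 held 195 and 48 of the 248 regressed Vegfa UMIs, so that value rests on few UMIs.

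Immune cells held Vegfa at 32.7 CPM (27.6 to 38.4), 32.6 CPM (26.3 to 39.8) and 21.9 CPM (17.0 to 27.9). The untreated and regressed tumors did not differ beyond counting error, with a log2 ratio of -0.0046 (-0.39 to 0.38), while the median of all 12580 features tested in immune cells stood at 0.51. The progressed tumor was lower, at -0.57 (-1.02 to -0.15) against untreated, by less than 2-fold. The mix of the pooled immune cells differed between the untreated, regressed and progressed tumor. Neutrophils numbered 391, 216 and 4 cells, Monocytes1 225, 197 and 53, and macrophages 312, 143 and 339. The part of this mix in the pooled level was not tested. The main holders were Monocytes1, with 72.1 CPM (57.2 to 89.6) in the untreated and 60.7 CPM (45.1 to 80.0) in the regressed tumor, and neutrophils of the regressed tumor, with 67.2 CPM (41.1 to 104). Monocytes1 held 8 UMIs in the progressed tumor, at 32.2 CPM. Macrophages held less in the untreated (14.1 CPM) and regressed (11.1 CPM) tumor and 25.3 CPM in the progressed tumor. Of 4 members with enough UMIs in immune cells, 0 were 2-fold apart in any comparison, against 29.4% of features between regressed and untreated, 20.3% between progressed and regressed and 15.2% between progressed and untreated.

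Angpt2 had more UMIs in stroma than in vessel cells in every tumor. Stroma held 1153, 235 and 1280 Angpt2 UMIs, or 81.9 CPM (77.3 to 86.8), 36.6 CPM (32.1 to 41.6) and 72.8 CPM (68.8 to 76.9). The regressed tumor was the low one, with log2 ratios of -1.16 (-1.37 to -0.96) against untreated and 0.99 (0.79 to 1.20) for progressed/regressed. This rested on Stroma10. Without that cluster the first ratio turned to 0.53 and the second to -0.70.

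The transcript was concentrated in 1 cluster of each tumor. Stroma2 of the untreated tumor held 973 UMIs at 166 CPM (155 to 176), in 479 of 1144 cells. Stroma6 of the progressed tumor held 1215 at 213 CPM (202 to 226), in 590 of 1255 cells. Stroma9 of the regressed tumor held 179 at 130 CPM (111 to 150), in 111 of 310 cells, whereas Stroma10 of the same tumor held 49 at 10.1 CPM. These levels were of the order of those in Bloodvessel. Stroma6 could be compared between the untreated and progressed tumor and did not differ beyond counting error, with 207 CPM (168 to 252) against 213 CPM, a log2 ratio of 0.05 (-0.25 to 0.36). The cells with Angpt2 in untreated Stroma2 were not vessel cells by their markers: Col1a1 was found in all 479 and Pecam1 in 1.25% of them. Cdh5 was found in 32.8% of those cells and in 25.7% of the Stroma2 cells without Angpt2.

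**Figure D5:**
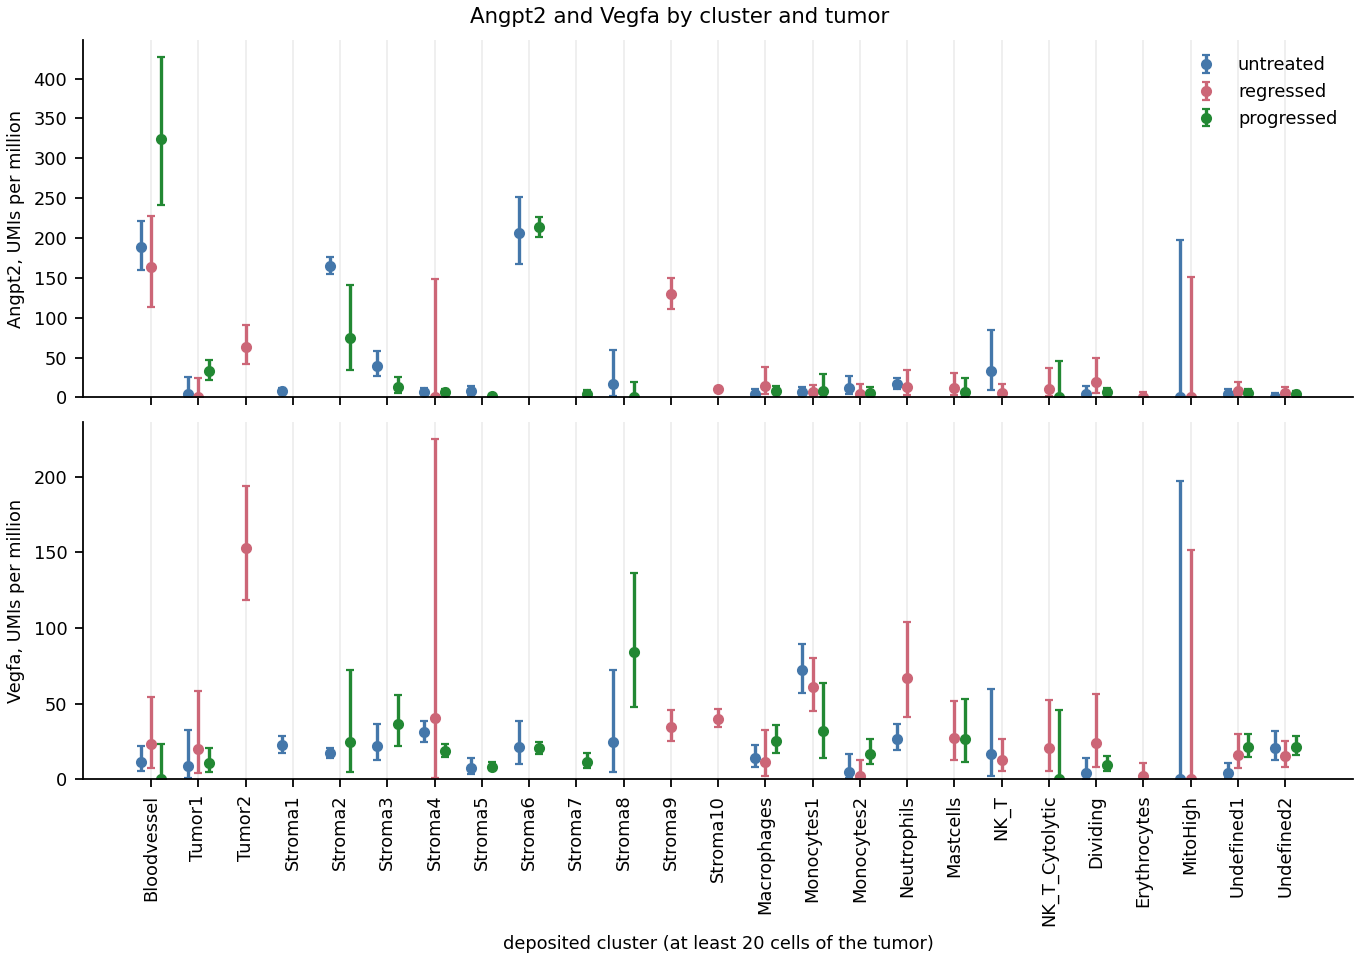
Level of Angpt2 and Vegfa in each cluster with at least 20 cells, as CPM with 95% exact Poisson intervals, 1 point per tumor. Angpt2 is highest in Bloodvessel, Stroma6, Stroma2 and Stroma9, and Vegfa is highest in Tumor2 of the regressed tumor, at 153 CPM.

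Angpt1, the Tek agonist, was scarcer but lay in the same stroma clusters. Stroma held 194, 31 and 127 Angpt1 UMIs, or 13.8 CPM (11.9 to 15.9), 4.83 CPM (3.28 to 6.85) and 7.22 CPM (6.02 to 8.59). The untreated tumor was high, and the log2 ratio was -1.51 (-2.11 to -0.96) for regressed/untreated and -0.93 (-1.27 to -0.60) for progressed/untreated. Without Stroma10 the first was -0.43. Stroma2 held 142 of the 198 UMIs of the untreated tumor and Stroma6 69 of the 153 of the progressed tumor. Vegfc, the Flt4 ligand, had 119, 33 and 128 stroma UMIs, or 8.45, 5.14 and 7.28 CPM, lower in the regressed than the untreated tumor by -0.72 (-1.32 to -0.15) on the log2 scale. Stroma Vegfb was 16.0, 13.9 and 11.2 CPM. Flt1 was scarce in stroma, with 11, 16 and 17 UMIs (0.781, 2.49 and 0.966 CPM). Of 8 members with enough UMIs in stroma, 3 were 2-fold apart between regressed and untreated (Angpt1 and Angpt2 lower, Flt1 higher), where 20.8% of features were. Between progressed and regressed 3 of 8 were lower (Vegfa, Flt1 and Tek), where 20.8% of features were apart, and between progressed and untreated 1 of 8 (Tek), where 9.27% were.

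The other genes of the pathway were apart in Bloodvessel about as often as all features. Of 10 listed, 7 had enough UMIs between regressed and untreated, and 2 were 2-fold lower (against 24.8% of features apart either way): Pgf, a Flt1 ligand, with 41 UMIs in the untreated and 2 in the regressed tumor, and the semaphorin Sema3a, at 83.4 and 28.0 CPM. Pgf was 2-fold higher in the progressed tumor than in both others, at 197 CPM, with 26 of its 31 UMIs in 2 cells. Sema3a was 2-fold lower in the progressed than the untreated tumor, which made 2 of 7 apart there against 20.5% of features, and 1 of 6 was apart for progressed/regressed against 20.3%. Tie1, the partner of Tek, was at 306, 308 and 204 CPM, Ptprb, a phosphatase acting on Tek and Kdr, at 421, 676 and 579 CPM, and Nrp2, the co-receptor of lymphatic vessels, at 116, 159 and 121 CPM. In stroma, Vegfd had 655, 147 and 397 UMIs and was 2-fold lower in both treated tumors than in the untreated one.

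Among 9 genes known to respond to VEGF or to mark tip cells, 7 had enough UMIs in Bloodvessel between regressed and untreated. Of these, 2 were 2-fold higher and 1 was lower, where 24.8% of features were apart. Esm1, a secreted tip cell proteoglycan, was at 21.8, 56.0 and 63.7 CPM and Dll4, the Notch ligand of tip cells, at 43.7, 102.6 and 101.9 CPM, so both were higher in both treated tumors. These rest on 17, 12 and 10 UMIs for Esm1 and on 34, 22 and 16 for Dll4. Rcan1, a calcineurin inhibitor induced by VEGF, went the other way in the regressed tumor, at 109, 23.3 and 140 CPM. The median log2 ratio of the 7 genes between regressed and untreated was -0.44, and that of all features 0.05. Between progressed and regressed 1 of 6 was apart (Rcan1, against 20.3% of features), and between progressed and untreated 2 of 7 (Esm1 and Dll4, against 20.5%).

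The genes whose level over the 53 sums of cluster and tumor was most like that of Kdr were Podxl, Adgrl4, Gpihbp1, Mmrn1 and Fam167b, with Pearson correlations of log2 (CPM + 10) of 0.95 for each. For Angpt2 they were Tspan12 (0.76), Pcdh12 (0.76), Gm13889 (0.76), Plvap (0.75) and Dysf (0.73), and for Angpt1 Slc43a1 (0.80), C1qtnf7 (0.80), Lrrn2 (0.80), En1 (0.78) and Slit2 (0.78). Vegfa had no neighbour as close, Por (0.68) and Metrnl (0.63) being the nearest. Kdr was high in the 3 Bloodvessel sums alone, at 86.0 to 236 CPM, with 10.5 CPM in the next highest. A gene confined to Bloodvessel therefore correlates with Kdr whatever its pattern among vessel cells. Mmrn1 was also used to mark lymphatic cells, in which Kdr was lower. The sums share libraries and differ in depth, and these values describe the 3 tumors only.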

How the data were processed

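Single cells of 3 melanomas (1 per group) were captured with the 10x Chromium 3' v2 kit. The deposited values are UMI counts per gene and cell. The authors aligned reads with GSNAP to GRCm38 (mm10), counted reads unique in exons on the sense strand, collapsed UMIs, removed cells with few UMIs and clustered with Seurat 2.2.0. The deposited cluster names were used, and no doublet caller was run here. The smallest cell held 309 UMIs. The sum of each cell's counts exceeded the deposited total by 5.02% over all cells. Cell names are running numbers, so barcodes shared between libraries could not be counted.

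Counts were summed per cluster and tumor and given per 1000000 UMIs (Python 3.11.15, scipy 1.17.1, numpy 2.4.6, pandas 2.3.3, edgeR 4.0.16 in R 4.3.3 for TMM factors). Entrez IDs were matched to symbols for 31049 of 36530 features. A gene counted as apart at 2-fold or more among features with at least 20 UMIs over the pair of tumors. Where a group had 0 UMIs, a floor of 3 UMIs was used. Clusters with under 20 cells gave no share, except where named. The steps were tested on simulated data. The genes named are the 10 members, fixed lists of 10 pathway, 9 VEGF-responsive and 12 low-oxygen genes, markers, and the 5 genes most like Kdr, Vegfa, Angpt1 and Angpt2, among genes with at least 200 UMIs. The members and lists were chosen with earlier results of these data known. Alternatives were another denominator, TMM factors, other fold and UMI minimums, thinning to 1000 UMIs, other cell sets and equal weights. Leaving out lymphatic-marked cells, or the cell with most receptor UMIs, was added after the data were seen. One item of the mouse genotype is not reported here.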

Additional observations from a re-analysis of the deposited data

Results flagged for a closer look

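Angpt2 moved in opposite directions in 2 cell groups between the regressed and the untreated tumor. Its log2 ratio was 3.63 in tumor cells, where the untreated tumor had 1 UMI, and -1.16 in stroma. The difference between the groups was not tested, since each tumor was 1 sample. Without Stroma10 the stroma value was 0.53, and in tumor cells thinned to 1000 UMIs the value was 0.44, on at most 1 untreated UMI.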

How the results depend on the processing

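Of 637 recomputed values, 489 stayed within the 95% counting interval of the reported value (counts of genes, within 1.5 times it), 146 moved outside it, and 2 reported past 2-fold turned sign. Counting also those reported under 2-fold, 396 of 434 log2 ratios kept their sign. The receptor sum in Bloodvessel against untreated was 0.27 (regressed) and 0.090 (progressed) in cells thinned to 1000 UMIs, and for progressed against untreated 0.12 with equal weight per cell, 0.999 without lymphatic-marked cells and 0.27 without the cell with most receptor UMIs. Progressed against regressed it was -0.27 without the 5% of cells with most UMIs, -0.22 with equal weight per cell and -0.38 without the cell with most receptor UMIs. Vegfa in tumor cells was 1.13 and -0.87 (progressed against regressed) in Tumor1 alone, and -5.17 with equal weight per cell for the latter. Angpt2 in stroma, regressed against untreated, was -1.41 with TMM factors, -1.46 thinned, -1.49 with equal weight per cell, -0.66 with 4 stroma clusters weighted equally and reversed to 0.53 without Stroma10. Progressed against regressed it was 1.30 with TMM factors, 1.22 without the 5% of cells with most UMIs, 1.53 thinned, 1.40 with equal weight, 0.44 with 4 clusters and -0.70 without Stroma10, and progressed against untreated 0.067 thinned. Vegfa in stroma, progressed against regressed, reversed to 0.27 with 4 clusters, on few regressed UMIs, and was -0.92 with TMM factors. The Angpt2 values with 4 clusters also rest on few regressed UMIs, as Stroma9 and Stroma10 held 179 and 49 of the 235 in stroma. TMM factors shift every log2 ratio of regressed against untreated by -0.59 in immune cells, which puts Vegfa there at -0.59, by -0.25 in stroma and by -0.20 in Bloodvessel, and those of progressed against regressed by 0.31 in stroma, 0.32 in immune cells and 0.13 in tumor cells. With cell groups weighted by CPM, stroma held 16.8%, 14.9% and 19.1% of Vegfa and 27.2%, 13.5% and 16.3% of Angpt2. Thinned shares of Bloodvessel cells with Kdr were 9.46%, 9.76% and 17.9%. Members past the fold over 12 comparisons numbered 14, and 36 at 1.5-fold, 6 at 3-fold, 30 with at least 5 UMIs and 9 with at least 50 UMIs. The cause of these shifts was not tested.

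No paired analysis was possible because each group had 1 tumor. Vessel cells were fewest in the progressed tumor (28) and shallowest in the regressed tumor (a median of 3504 UMIs).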
